A study of Mus musculus with 203 samples.

Results

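Extracellular nucleotides and nucleosides act as local signals between cells, and the genes that sense and degrade them were followed here in RAW264.7 cells, a mouse macrophage line. The 10 genes were taken by symbol, and all of them were found among the 25094 genes of the RAW cell table. They are P2ry2, P2ry6, P2ry12 and P2ry14 (receptors coupled to G proteins), P2rx4 and P2rx7 (ATP-gated cation channels), Adora2a and Adora2b (adenosine receptors), and the enzymes Entpd1 and Upp1. The same 10 symbols are listed in the table of bone marrow-derived macrophages (BMDMs) from WT and Gps2 KO mice, which holds only the authors' own comparisons and was not analysed here.

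Of the 203 samples of the series, the 16 RNA-seq libraries of RAW cells are used, 4 in each of 4 groups. Cells carried a lentiviral short hairpin against GFP (shGFP, the control) or against Kdm1a (shKDM1A), and each line was sequenced without IL4 (control) and after 6 h with 20 ng/ml of IL4. The question of the experiment was what the histone demethylase KDM1A (LSD1) contributes to the response to IL4, the cytokine that drives alternative (M2) activation of macrophages through STAT6. All 4 groups thus share a stably integrated hairpin vector and puromycin selection, and the knockdown rests on 1 hairpin sequence. The study's methods call replicates biological in general, but the 16 libraries are labelled by group and number and not by culture, so p-values measure the spread between these libraries, which may be technical.

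ATP leaves activated, stressed or dying cells through channels, vesicles or broken membranes and is then a danger signal. Cells read it with ion channels, which open within moments, and with slower receptors coupled to G proteins, some of which prefer the uracil nucleotides UTP and UDP. Enzymes on the cell surface strip the phosphates from ATP until adenosine remains. Adenosine acts on receptors of its own, some of which raise cyclic AMP and restrain inflammatory macrophages. In macrophages the channel encoded by P2rx7 is best known for its part in inflammasome activation, and the receptor encoded by Adora2b for strengthening M2 gene expression.

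The values are moderated log2 expression values as deposited, a scale on which genes with few reads are drawn towards their own mean. A difference of 1 is a doubling, and differences of weakly expressed genes are understated. Library totals ranged from 17554721 to 27782568 tags, and the median log2 value per library over the genes tested ranged from 9.23 to 9.25. Replicate libraries differed by a median of 0.036 to 0.056 log2 units over genes. Groups were compared with limma, with Benjamini-Hochberg adjustment over all 12905 genes that reached a log2 value of 1 in at least 4 libraries, and a gene was called at an adjusted p under 0.05. Kdm1a itself was at 11.21, 11.23, 11.13 and 11.17 in shGFP cells and at 10.36, 10.32, 10.23 and 10.29 in shKDM1A cells without IL4, and at 11.12, 11.10, 11.12 and 11.07 against 10.32, 10.33, 10.34 and 10.28 with IL4. The groups did not overlap, and Kdm1a fell by 0.88 without and by 0.79 with IL4 (both called). The IL4 target Ptgs1 rose by 1.77 in shGFP cells and by 1.08 in shKDM1A cells. All 8 macrophage markers examined, among them Csf1r, Spi1 and Lyz2, lay between 9.52 and 17.18 in every library. Of 15 markers of T cells, B cells, fibroblasts, epithelial cells and neutrophils, 14 were at or below 0 in every library, and the exception was S100a8 at 1.21 to 1.26.

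Upstream sequences are shown for the 4 genes on which the results below turn: P2rx7 and P2ry2, which changed with IL4 in both lines, and P2ry6 and Adora2b, which differed between the lines with and without IL4. Each is the 250 bases before the annotated transcript start in the mm9 mouse genome, 5′ to 3′ on the strand of the gene, with matches to the motifs in capitals. P2rx7 (plus strand, chr5:123093686-123093935), P2ry2 (minus strand, chr7:108160513-108160762), P2ry6 (minus strand, chr7:108112881-108113130) and Adora2b (plus strand, chr11:62062236-62062485) read as follows.
P2rx7: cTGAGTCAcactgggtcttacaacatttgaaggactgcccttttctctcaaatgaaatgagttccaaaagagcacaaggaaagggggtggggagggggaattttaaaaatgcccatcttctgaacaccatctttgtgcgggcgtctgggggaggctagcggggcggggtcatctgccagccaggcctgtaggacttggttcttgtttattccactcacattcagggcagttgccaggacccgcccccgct
P2ry2: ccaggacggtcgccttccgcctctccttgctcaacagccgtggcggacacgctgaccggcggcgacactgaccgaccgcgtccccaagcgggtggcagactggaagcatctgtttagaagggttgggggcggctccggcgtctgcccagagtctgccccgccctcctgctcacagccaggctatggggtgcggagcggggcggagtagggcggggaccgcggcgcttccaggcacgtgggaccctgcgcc
P2ry6: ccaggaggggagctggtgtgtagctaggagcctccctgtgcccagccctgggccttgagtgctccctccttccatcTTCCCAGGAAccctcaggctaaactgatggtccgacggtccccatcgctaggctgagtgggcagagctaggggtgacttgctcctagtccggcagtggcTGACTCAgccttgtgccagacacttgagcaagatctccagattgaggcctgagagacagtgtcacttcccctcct
Adora2b: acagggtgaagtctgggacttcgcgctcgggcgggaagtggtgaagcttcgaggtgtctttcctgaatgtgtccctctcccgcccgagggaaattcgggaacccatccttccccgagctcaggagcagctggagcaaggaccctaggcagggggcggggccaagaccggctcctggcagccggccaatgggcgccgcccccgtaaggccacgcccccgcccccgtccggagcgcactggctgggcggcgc

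Motifs were searched on both strands of the same window of all 10 genes, the letters TTC and GAA with any 4 bases between them for STAT6, TGANTCA for AP-1 and GAGGAAGT for PU.1. The STAT6 letters occurred once among the 10 genes, in P2ry6 (TTCCCAGGAA, from position -174 relative to the start), and are present in 5.54% of all 25015 windows. The AP-1 letters occurred in P2ry6 (TGACTCA, from -75), in P2rx7 (TGAGTCA, from -249) and in Upp1 (from -45), and in 6.21% of all windows. The PU.1 letters occurred in none of the 10 windows and in 2.32% of all windows. Among the 12886 windows of tested genes, the STAT6, AP-1 and PU.1 letters were present in 4.86%, 4% and 2.62%. The matches in P2ry6 do not overlap each other. A match is a description of these letters in this window only and does not bear on the expression values. The windows of P2ry2 and Adora2b were rich in G and C (71.2% and 69.6%, with 26 and 22 CpG dinucleotides), whereas those of P2ry6 (60.4%, 4 CpG) and P2rx7 (53.6%, 6 CpG) held few CpG. Over 12886 windows of tested genes, the medians were 59.6% and 16 CpG.

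Several of the genes are neighbours in the mm9 genome. P2rx7 (chr5:123093936-123134298) lies 23254 bases from P2rx4 (chr5:123157553-123179747), on the same strand and with no listed gene between them. P2ry6 (chr7:108086148-108112880) and P2ry2 (chr7:108145082-108160512) lie 32201 bases apart, again on 1 strand with none between. P2ry14 (chr3:58918545-58934684) and P2ry12 (chr3:59020193-59066907) are 85508 bases apart, with 3 listed genes between them, and both lie within Med12l on the opposite strand. Entpd1 is at chr19:40734260-40816092, Adora2a at chr10:74779622-74797537, Adora2b at chr11:62062486-62079954 and Upp1 at chr11:9018011-9036173. Reads were counted without regard to strand, and no exon of the 10 genes overlaps an exon of another gene in the annotation used.

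Of the 10 genes, 5 were clearly expressed, and the levels differed widely. On the log2 scale per kb of transcript in shGFP control cells, P2ry6, a receptor for UDP, was highest at 9.77, above 84.1% of tested genes. P2rx7 followed at 7.20, P2rx4 at 6.58, Adora2b at 6.04 and P2ry2, a receptor for ATP and UTP, at 5.42, above 24.8% of tested genes. Within each of the 4 groups, the libraries of neighbouring genes in this order did not overlap. The closest were P2rx4 and Adora2b in shKDM1A cells with IL4, where the lowest library of P2rx4 was at 6.38 per kb and the highest of Adora2b at 6.35. With the lengths listed by the authors, the order of these 5 genes was therefore the same in all 4 groups. It depends on those lengths: P2rx4 is listed at 2688 bases, while its annotated exons cover 3309. Not divided by length, Adora2b was below P2ry2 in shGFP control cells (means 6.92 and 7.01). In shKDM1A cells with IL4 it was above P2ry2 (7.19 and 6.90).

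**Figure D1:**
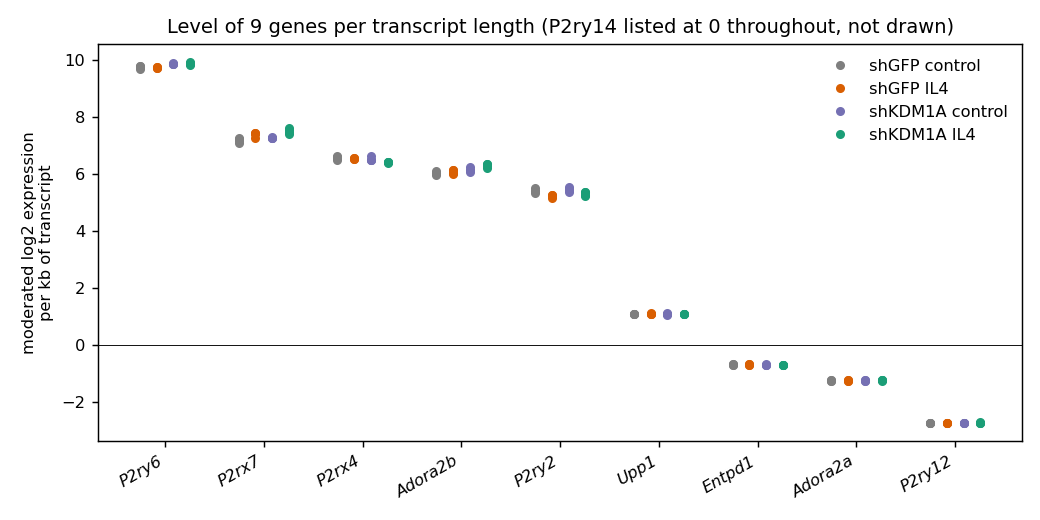
Moderated log2 expression per kb of transcript (vertical axis) of 9 genes, with a point for each of 16 libraries coloured by group. The 5 expressed receptor genes lie between 5 and 10, Upp1 near 1, and Entpd1, Adora2a and P2ry12 below 0.

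The other 5 genes had much lower values. Upp1, which encodes uridine phosphorylase, ranged from 1.392 to 1.451 over the 16 libraries, and Entpd1, which encodes the surface enzyme CD39 that degrades ATP and ADP to AMP, from 1.378 to 1.426, both as log2 values not divided by length. Both passed the filter in every group, but only 2.0% and 1.9% of tested genes were lower. These shares leave out the genes that failed the filter at a log2 value of 1. Other genes examined were as low as -2.27. Adora2a, whose product is an adenosine receptor that restrains inflammatory immune cells, ranged from 0.143 to 0.177. P2ry12, the ADP receptor known from platelets and microglia, ranged from -1.368 to -1.351. P2ry14, a receptor for UDP-glucose, is listed at 0 in all 16 libraries, as 8488 genes of the table are, and this 0 is a placeholder and not a level above P2ry12. Adora2a, P2ry12 and P2ry14 were not tested, so 7 of the 10 genes entered each comparison. Values this low were moderated to near constancy: the 244 genes at the level of Entpd1 had a median within-group SD of 0.013, against 0.044 over all tested genes, so a small change in them would not be detectable on this scale. In bulk RNA, fewer cells with a transcript and less transcript per cell cannot be told apart.

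The 5 comparisons are given first by their counts. In shGFP cells IL4 was accompanied by a call for 2 of the 7 genes, P2rx7 higher and P2ry2 lower, where 26.9% of all tested genes were called (13.1% higher and 13.7% lower). In shKDM1A cells 4 of 7 were called, P2rx7 and Adora2b higher and P2ry2 and P2rx4 lower, against 27.1% of all genes (13.6% higher and 13.5% lower). For the knockdown without IL4, 2 of 7 were called, P2ry6 and Adora2b, both higher, against 38.2% (19.7% higher and 18.4% lower). For the knockdown with IL4, 3 of 7 were called, P2ry6 and Adora2b higher and P2rx4 lower, against 40.7% (20.9% higher and 19.8% lower). Over all genes, the balance of higher and lower calls depended on the scaling: after quantile normalization 43.2% of the calls without IL4 and 45% of those with IL4 were higher for the knockdown, against 51.7% and 51.3% as tested, while after median centring 51.8% and 56.7% were higher. Median centring also gave 56.5% higher among the calls for IL4 in shKDM1A cells, against 50.1% as tested, and 66.2% in the difference of the IL4 effects, against 58%. The macrophage markers also moved, with 2 of 8 higher and 3 lower with IL4 in shGFP cells, 3 higher and 3 lower in shKDM1A cells, 5 higher and 3 lower after the knockdown without IL4 and 6 higher and 2 lower with IL4, and their part in the result was not tested. For the 7 receptor and enzyme genes, the share called was above the background for IL4 in shKDM1A cells (4 of 7). That count rested on single libraries. It was 2 of 7, near the background, without replicate 2 or 3 of the shKDM1A IL4 libraries or replicate 2 of the shKDM1A control libraries. The share was near or below the background in the other comparisons, and the comparisons share groups of libraries with one another. The median difference of the 7 genes was 0.00, -0.01, 0.03 and 0.08 in these comparisons, and that of all tested genes was 0.00 in each. The largest difference of any of the 7 genes was 0.23, and none of the 7 differed by 0.5 log2 units in any comparison.

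**Figure D2:**
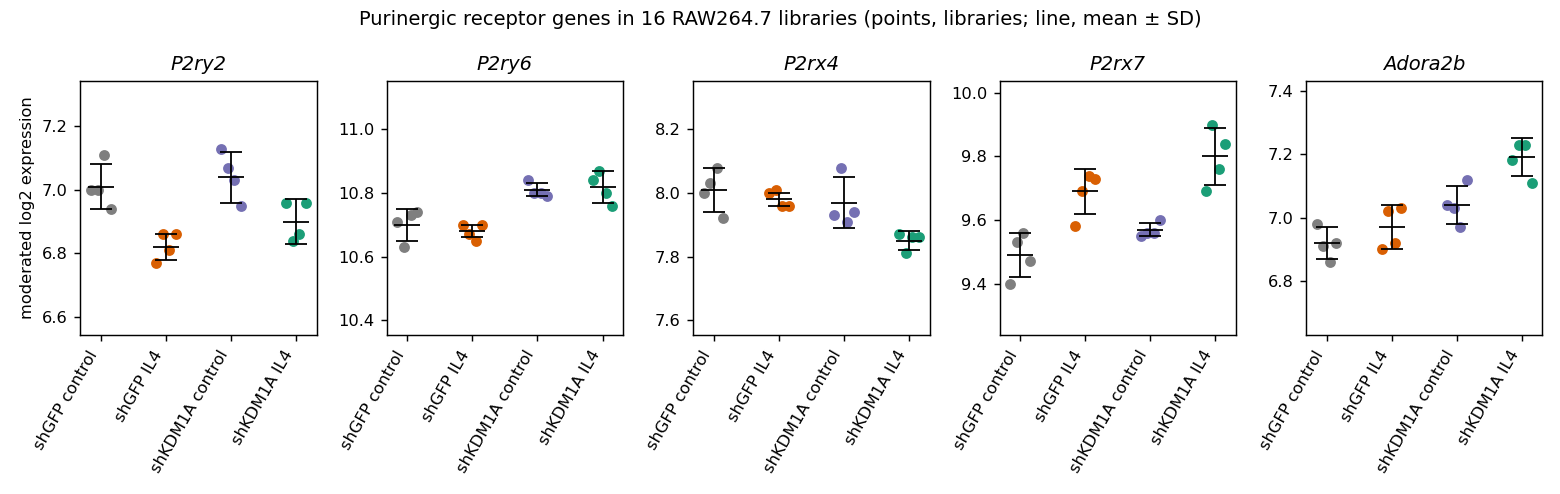
Moderated log2 expression (vertical axes, each with its own range) of the 5 expressed receptor genes in the 4 groups, with a point for each library and lines at the mean ± SD (n = 4). P2rx7 is higher and P2ry2 lower with IL4 in both lines, and P2ry6 and Adora2b are higher in shKDM1A than in shGFP cells at equal treatment.

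P2rx7, the ATP-gated channel of the inflammasome pathway, was the gene of the 10 that rose most with IL4. In shGFP cells it was at 9.40, 9.53, 9.56 and 9.47 without IL4 and at 9.58, 9.69, 9.74 and 9.73 with IL4. In shKDM1A cells it was at 9.55, 9.56, 9.56 and 9.60 without and at 9.69, 9.90, 9.76 and 9.84 with IL4. In both lines every library with IL4 was above every library without it. The rise was 0.19 in shGFP cells (95% confidence interval 0.10 to 0.29, adjusted p = 0.0036 from limma) and 0.23 in shKDM1A cells (0.14 to 0.32, adjusted p = 0.00094 from limma), which is 14.5% and 17.3% on a linear scale. These differences were larger in size than those of 91.6% and 94.1% of tested genes. Both calls held under all 15 alternatives of filter, scaling, model or library left out, apart from a minimum difference of 0.5, which no gene of the 10 reached in any comparison. P2rx7 did not pass the test for the knockdown, with differences of 0.07 without IL4 (-0.02 to 0.17, adjusted p = 0.21 from limma) and 0.11 with IL4 (0.02 to 0.20, adjusted p = 0.06 from limma). Under the alternatives the latter fell on both sides of the threshold, and without replicate 1 of the shKDM1A IL4 libraries it was 0.14 (adjusted p = 0.016).

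P2rx4 encodes a second ATP-gated channel, found on the cell surface and on lysosomes, and its gene lies next to that of P2rx7. Without IL4 it was at 8.00, 8.03, 8.08 and 7.92 in shGFP cells and at 7.93, 8.08, 7.91 and 7.94 in shKDM1A cells. With IL4 it was at 8.00, 8.01, 7.96 and 7.96 in shGFP cells and at 7.87, 7.81, 7.86 and 7.86 in shKDM1A cells. The shKDM1A cells with IL4 thus lay below every other library, and the remaining 3 groups overlapped. The difference between shKDM1A and shGFP cells with IL4 was -0.13 (95% confidence interval -0.21 to -0.05, adjusted p = 0.01 from limma), a fall of 8.69%, and it held under all 15 alternatives. Without IL4 the difference was -0.04 (-0.12 to 0.04, adjusted p = 0.45 from limma). For IL4 the difference was -0.02 in shGFP cells (-0.10 to 0.05, adjusted p = 0.7 from limma) and -0.12 in shKDM1A cells (-0.20 to -0.04, adjusted p = 0.029 from limma). The call in shKDM1A cells was lost under 6 of 15 alternatives, among them the fits without replicate 2 of the shKDM1A control libraries (-0.08, adjusted p = 0.097) and without replicate 2 (-0.10, adjusted p = 0.076) or replicate 3 (-0.12, adjusted p = 0.051) of the shKDM1A IL4 libraries. Its neighbour P2rx7 rose in the same comparison.

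P2ry2, whose receptor senses ATP and UTP and guides phagocytes towards dying cells, fell with IL4. In shGFP cells it was at 7.00, 7.00, 7.11 and 6.94 without IL4 and at 6.77, 6.86, 6.81 and 6.86 with IL4, with no overlap. In shKDM1A cells it was at 7.13, 7.07, 7.03 and 6.95 without and at 6.96, 6.84, 6.86 and 6.96 with IL4, and 2 of the 4 libraries with IL4 lay within the range of those without. The difference was -0.19 in shGFP cells (95% confidence interval -0.28 to -0.10, adjusted p = 0.0036 from limma), a fall of 12.3%, and was called under all 15 alternatives. It was -0.14 in shKDM1A cells (-0.23 to -0.05, adjusted p = 0.024 from limma). The call in shKDM1A cells was lost without replicate 2 (-0.12, adjusted p = 0.07) or 3 (-0.12, adjusted p = 0.07) of the shKDM1A IL4 libraries and without replicate 1 (-0.11, adjusted p = 0.08) or 2 (-0.13, adjusted p = 0.063) of the shKDM1A control libraries. For the knockdown the differences were 0.03 without IL4 (-0.06 to 0.12, adjusted p = 0.61 from limma) and 0.08 with IL4 (-0.01 to 0.17, adjusted p = 0.15 from limma).

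P2ry6, the UDP receptor gene next to P2ry2 and the most highly expressed of the 10 per length, was higher in shKDM1A cells and passed no test for IL4. Without IL4 it was at 10.71, 10.63, 10.73 and 10.74 in shGFP cells and at 10.84, 10.80, 10.80 and 10.79 in shKDM1A cells. With IL4 it was at 10.70, 10.67, 10.65 and 10.70 in shGFP cells and at 10.84, 10.87, 10.80 and 10.76 in shKDM1A cells. Every shKDM1A library was above every shGFP library, whatever the treatment. The difference was 0.11 without IL4 (95% confidence interval 0.05 to 0.16, adjusted p = 0.0054 from limma) and 0.14 with IL4 (0.08 to 0.20, adjusted p = 0.0007 from limma), or 7.67% and 10.1%. Both calls held under all 15 alternatives. These differences exceeded those of 69.1% and 75.6% of tested genes in size, so changes of this size were common after the knockdown. With IL4 the differences were -0.02 in shGFP cells (-0.08 to 0.03, adjusted p = 0.61 from limma) and 0.01 in shKDM1A cells (-0.05 to 0.07, adjusted p = 0.88 from limma).

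Adora2b, the low-affinity adenosine receptor gene, was higher in shKDM1A cells, and its group means were 6.92 and 6.97 in shGFP cells and 7.04 and 7.19 in shKDM1A cells, without and with IL4. In shGFP cells it was at 6.98, 6.91, 6.86 and 6.92 without IL4 and at 6.90, 7.02, 6.92 and 7.03 with IL4, which overlap. In shKDM1A cells it was at 7.04, 7.03, 6.97 and 7.12 without and at 7.18, 7.23, 7.23 and 7.11 with IL4, where 3 of the 4 libraries with IL4 were above all those without. Between the lines, shKDM1A and shGFP cells did not overlap with IL4, and 3 of 4 shKDM1A libraries were above all shGFP libraries without it. The knockdown difference was 0.12 without IL4 (95% confidence interval 0.04 to 0.20, adjusted p = 0.021 from limma) and 0.22 with IL4 (0.14 to 0.30, adjusted p = 0.00026 from limma), or 8.81% and 16.5%. The call with IL4 held under all 15 alternatives. The call without IL4 was lost under quantile normalization (0.09, adjusted p = 0.092) and without replicate 3 of the shGFP control (0.10, adjusted p = 0.068) or replicate 4 of the shKDM1A control libraries (0.10, adjusted p = 0.076). IL4 was accompanied by a rise of 0.15 in shKDM1A cells (0.07 to 0.23, adjusted p = 0.0087 from limma), called under all 15 alternatives, and by a difference of 0.05 in shGFP cells (-0.03 to 0.13, adjusted p = 0.4 from limma).

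**Figure D3:**
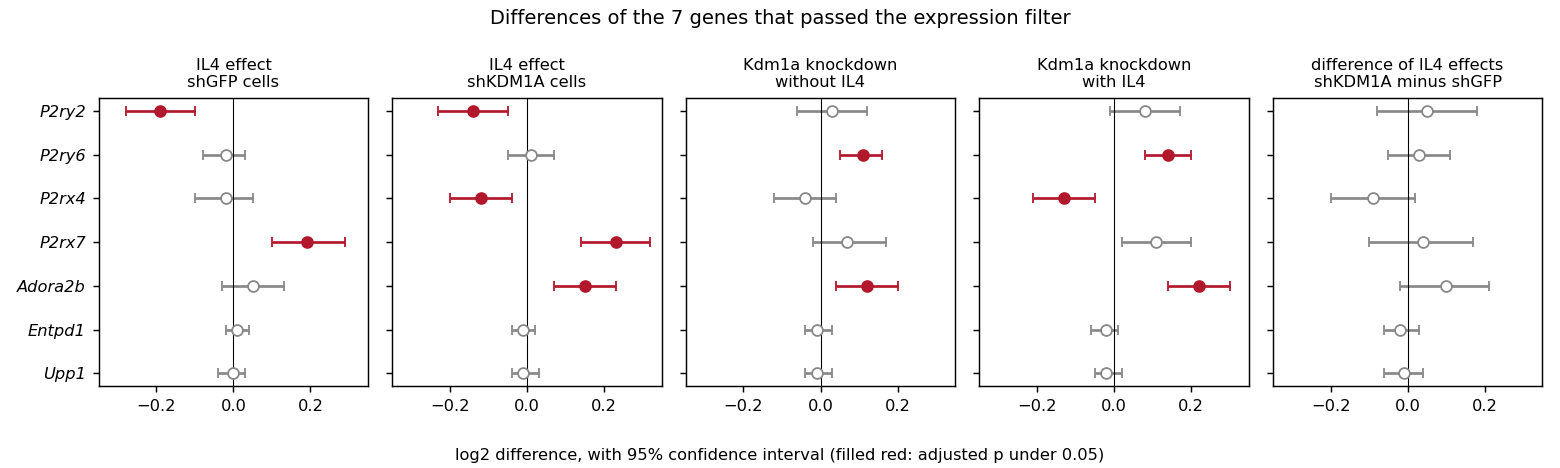
Log2 differences (horizontal axes) of the 7 genes tested, one panel for each of the 5 comparisons, with 95% confidence intervals from limma, filled red where the adjusted p was under 0.05. No interval reaches beyond 0.5 in either direction, and no gene is filled in the panel for the difference of the IL4 effects.

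The response to IL4 was then compared between the lines, as the shKDM1A minus the shGFP effect of IL4. None of the 7 genes was called by limma, where 6.13% of all tested genes were (3.56% higher and 2.57% lower), and none had an unadjusted p under 0.05. The smallest unadjusted p from limma was 0.093, for Adora2b, whose IL4 effect was 0.10 larger in shKDM1A cells with a 95% confidence interval from -0.02 to 0.21. For P2rx4 the difference of effects was -0.09 (-0.20 to 0.02), for P2ry2 0.05 (-0.08 to 0.18), for P2rx7 0.04 (-0.10 to 0.17) and for P2ry6 0.03 (-0.05 to 0.11). So calls of Adora2b and P2rx4 for IL4 in shKDM1A but not in shGFP cells do not show that the lines differ in their response, and the intervals leave room for differences of up to about 0.2. By the same test, the IL4 effect on Ptgs1 was 0.69 smaller in shKDM1A cells (called).

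Entpd1 and Upp1, the 2 enzyme genes, passed no test. The IL4 difference of Entpd1 was 0.01 in shGFP cells (95% confidence interval -0.02 to 0.04) and -0.01 in shKDM1A cells (-0.04 to 0.02). Its knockdown difference with IL4 was -0.02 (-0.06 to 0.01, adjusted p = 0.23 from limma), and the adjusted p was 0.038 with no expression filter and 0.033 with a trended prior variance, at the same -0.02. The differences of Upp1 lay between -0.02 and 0.00 in the same comparisons. These narrow intervals describe the moderated scale and not the transcripts, since both genes sat just above the expression filter.

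The rest of the pathway was taken as lists of 59 genes by role, of which 37 were tested. With IL4, 6 of the 37 were higher and 7 lower in shGFP cells, where 26.9% of all tested genes were called, and 6 higher and 3 lower in shKDM1A cells, against 27.1%. With the knockdown, 9 were higher and 8 lower without IL4, against 38.2% of all tested genes called, and 11 higher and 6 lower with IL4, against 40.7%. These counts are near the background. The median difference of the 37 genes lay between -0.01 and 0.02 in these 4 comparisons, beside 0.00 for all tested genes. None of the 37 was called with a difference over 0.5. In the difference of the IL4 effects 2 were higher and 1 lower, against 6.13% of all tested genes called. These were Aprt (0.23) and Tk1 (0.13), higher, and Xdh (-0.29), lower, named here after their values were seen.

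**Figure D4:**
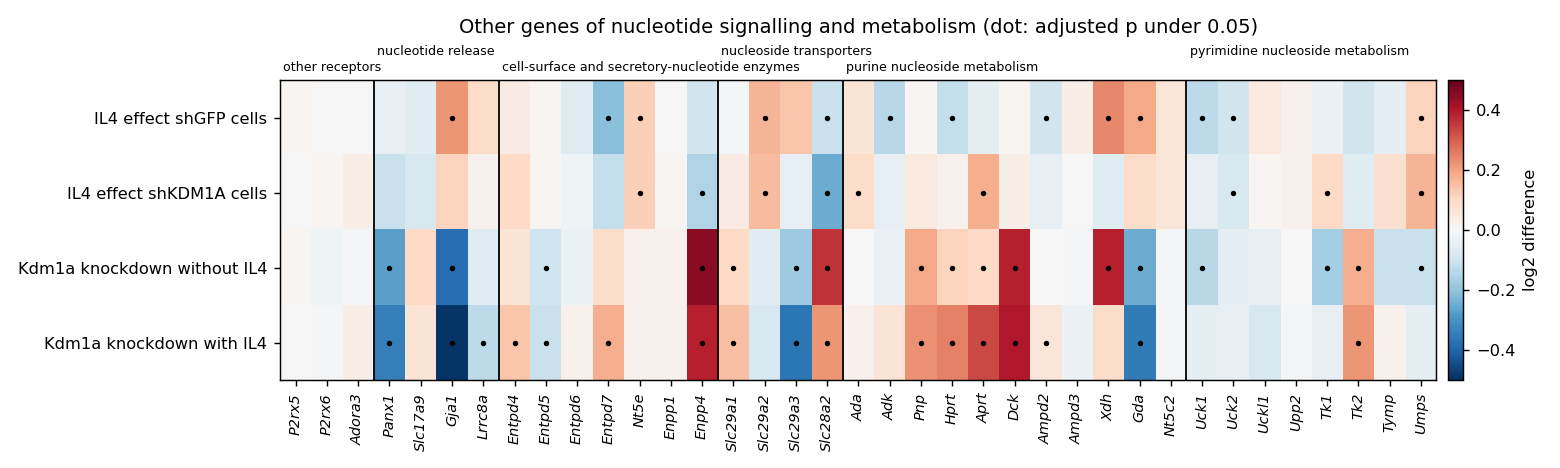
Log2 differences (colour) of the 37 other pathway genes tested, in columns by list, for the 2 IL4 comparisons and the 2 knockdown comparisons in rows, with a dot where the adjusted p was under 0.05. Dots are spread over both directions, and the 3 receptor genes at the left carry none.

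Among the 11 other receptor genes only P2rx5, P2rx6 and Adora3 were tested, and none was called in any comparison. Adora3, a further adenosine receptor, averaged 2.40, 2.40, 2.40 and 2.43 in the shGFP control, shGFP IL4, shKDM1A control and shKDM1A IL4 groups. P2ry13, an ADP receptor gene beside P2ry12, was at -2.09 in all groups, and P2rx1 is listed at 0. Of all the receptor genes examined, those above a log2 value of 5 were thus the 5 described above.

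Some genes that act before and after the receptors differed by more than the receptor genes did, though by less than 0.5. Panx1, a channel through which ATP leaves cells, averaged 8.71 ± 0.13 and 8.68 ± 0.09 (SD, n = 4) in shGFP cells without and with IL4, and 8.45 ± 0.11 and 8.34 ± 0.05 in shKDM1A cells. It was lower after the knockdown, with differences of -0.27 without IL4 (adjusted p = 0.0032 from limma) and -0.34 with IL4 (adjusted p = 0.00041 from limma), and no test for IL4 was passed. Of the 4 genes of nucleotide release that were tested, 2 were lower after the knockdown without IL4 and 3 with IL4, and none higher. The list medians were -0.17 and -0.24. Of all tested genes, 18.4% and 19.8% were lower and 19.7% and 20.9% higher in these 2 comparisons. Gja1, a connexin gene chosen here after its values were seen, differed most among them, with averages of 7.43 and 7.65 in shGFP cells and 7.05 and 7.16 in shKDM1A cells, without and with IL4.

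Of the 15 listed nucleotide enzymes of the cell surface and the secretory pathway, 7 were tested, and 4 of these (Entpd4, Entpd5, Entpd6 and Entpd7) belong to the relatives of Entpd1 that act mainly inside the cell. With IL4, 1 of the 7 was higher and 1 lower in each line, where 26.9% of all tested genes were called in shGFP and 27.1% in shKDM1A cells. Nt5e, the one that was higher in both lines, encodes CD73, which forms adenosine from AMP and so acts after CD39. It was weakly expressed, at 3.19, 3.19, 3.21 and 3.18 in shGFP control libraries and 3.34, 3.29, 3.34 and 3.26 with IL4. In shKDM1A cells it was at 3.24, 3.19, 3.20 and 3.22 without and 3.31, 3.33, 3.36 and 3.31 with IL4. The libraries with IL4 were above all those without it in both lines, and the rise was 0.12 in each (adjusted p = 0.00054 and 0.00053 from limma). The knockdown differences of Nt5e were 0.02 both without and with IL4 and were not called. The ones lower with IL4 were Entpd7 in shGFP cells (-0.21, adjusted p = 0.0021 from limma) and Enpp4 in shKDM1A cells (-0.15, adjusted p = 0.0039 from limma), both named after their values were seen. In the other line Entpd7 differed by -0.12 (adjusted p = 0.063 from limma) and Enpp4 by -0.09 (adjusted p = 0.065 from limma), and neither was called for the difference of the IL4 effects. After the knockdown 1 of the 7 was higher and 1 lower without IL4, and 3 higher and 1 lower with IL4, where 38.2% and 40.7% of all tested genes were called. Enpp4, an ectonucleotide pyrophosphatase gene, differed most among them and averaged 8.90 and 8.81 in shGFP cells and 9.35 and 9.20 in shKDM1A cells, without and with IL4.

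Adenosine can be taken up and turned over inside the cell. Of 7 listed nucleoside transporter genes 4 were tested, and 2 were higher and 1 lower after the knockdown, without IL4 (38.2% of all tested genes called) as well as with IL4 (40.7%). Slc29a1, the main equilibrative nucleoside transporter, averaged 11.05 and 11.04 in shGFP cells and 11.15 and 11.19 in shKDM1A cells, and its knockdown differences of 0.10 and 0.15 were called (adjusted p = 0.0053 and 0.00017 from limma). Slc29a3, an intracellular member of the same family named after its values were seen, was lower, with differences of -0.18 and -0.36 (adjusted p = 0.013 and 3.8e-05 from limma). With IL4, 1 transporter gene was higher and 1 lower in each line, against 26.9% and 27.1% of all tested genes called. Ada, which deaminates adenosine, rose with IL4 in shKDM1A cells by 0.09 (adjusted p = 0.017 from limma), and the difference in shGFP cells was 0.07 (adjusted p = 0.053 from limma). Adk, which phosphorylates adenosine, was lower with IL4 in shGFP cells, with a difference of -0.14 (adjusted p = 0.0034 from limma), beside -0.04 in shKDM1A cells (adjusted p = 0.48 from limma). The difference of these 2 effects on Adk was 0.11 and was not called (adjusted p = 0.18 from limma). Among the 11 genes of purine nucleoside metabolism, all tested, 5 were higher and 1 lower after the knockdown without IL4, and 5 and 1 with IL4, not all of them the same genes (Xdh was higher without and Ampd2 with IL4), at list medians of 0.00 and 0.07, where 19.7% and 20.9% of all tested genes were higher and 18.4% and 19.8% lower. Dck, the deoxycytidine kinase gene, chosen after its values were seen, averaged 11.28 and 11.29 in shGFP cells and 11.67 and 11.70 in shKDM1A cells. Of the 8 tested genes of pyrimidine nucleoside metabolism, the pathway of Upp1, 1 was higher and 3 were lower after the knockdown without IL4. With IL4, 1 was higher and none lower. Of all tested genes, 19.7% and 20.9% were higher and 18.4% and 19.8% lower, without and with IL4. Upp2, the paralogue of Upp1, averaged between 2.85 and 2.88 in the 4 groups and was not called.

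Across the 16 libraries the expressed receptor genes varied with one another to different degrees. Pearson's r was -0.74 for P2rx4 and Adora2b, 0.69 for P2ry6 and Adora2b, 0.64 for P2rx7 and Adora2b, and -0.59 for the neighbours P2rx4 and P2rx7. For the neighbours P2ry6 and P2ry2 it was 0.30. These values are descriptions over 16 libraries of 4 groups, so that differences between the groups enter every r. By the same measure over all tested genes, the most alike were Ano6 (0.95) and Adam9 (0.95) for P2rx7, Milr1 (0.91) and Eif1a (0.90) for P2ry2, Rpusd4 (0.93) and Dusp5 (0.92) for P2ry6, Snx18 (0.92) and Gm7072 (0.87) for P2rx4, and Tbcb (0.92) and Hmx3 (0.92) for Adora2b. For Entpd1 and Upp1 the highest were 0.82 (Msh6) and 0.78 (Zscan12).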

How the data were processed

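RNA-seq was analysed from 16 RAW264.7 libraries, grouped by their titles. The authors aligned reads to mm9, counted reads of either strand over the exons of each annotated gene with HOMER (1 row per gene) and ran DESeq2 between groups. The deposited values per library are moderated log2 expression values. The transformation is not given in the sources used here, and counts per gene were not used. Decimal commas were read as points. The other values of the deposited tables, namely the p-value, its adjusted form and the log2 fold change of each of the authors' own comparisons, were not used, and these are all that the BMDM table (16478 genes) holds, so it was not analysed. The other 171 samples of the series were not analysed here.

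Genes with a log2 value of at least 1 in at least 4 of 16 libraries were kept (12905 of 25094). Group means were fitted to all 4 groups in 1 model with limma 3.58.1 in R 4.3.3 (lmFit and eBayes, two-sided), for 5 contrasts, with Benjamini-Hochberg adjustment per contrast and calls at an adjusted p under 0.05. The step was tested on simulated data. Levels per kb are log2 values minus log2 of the transcript length in kb listed by the authors. Depth is given by the total tags per library in the file headers (17554721 to 27782568). The number of libraries, 4 per group, limits the precision. Sequences were read from the NCBIM37 (mm9) assembly at the listed transcript starts, and exon overlaps from the GENCODE annotation of that build.

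All 10 genes, Kdm1a and Ptgs1 are named, with fixed direct partners and, by the rule, pathway genes called with an absolute log2 difference over 0.5, of which there were none. Other pathway genes were named after their values were seen, as the text says. The genes and lists were chosen with earlier results of these data known. Likeness is Pearson's r over 16 libraries, with the 2 highest genes named. A further check gene of the IL4 response is not reported here. Alternatives were no filter, a stricter filter (log2 of at least 5), median centring, quantile normalization, only the groups compared, a trended prior variance, a replicate block, a minimum log2 difference of 0.5 and leaving out each library.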

Additional observations from a re-analysis of the deposited data

Results flagged for a closer look

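In groups of 4 libraries, a library far from the other 3 was looked for in 15 named genes (60 groups), and chance alone marks about 1 group in 20. There were 3 such libraries. P2rx4 in shKDM1A control replicate 2 was at 8.08, with the other 3 at 7.91 to 7.94, and without that library the IL4 difference of P2rx4 in shKDM1A cells was not called. Ptgs1 in shKDM1A IL4 replicate 4 was at 7.72, with the others at 7.78 to 7.79. Adora3 in shKDM1A IL4 replicate 3 was at 2.47, with the others at 2.41.

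The IL4 effect differed between the lines, by a test of the difference itself, for Ptgs1, which is not a purinergic gene. The difference was -0.69 (adjusted p = 1.2e-06 from limma), with 4 of 4 libraries higher with IL4 in each line.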

How the results depend on the processing

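No difference of the 7 genes changed its direction while called. Requiring a difference over 0.5 left 0 of the 7 genes in every comparison, and 174, 141, 337, 319 and 17 genes in all, for IL4 in shGFP cells, IL4 in shKDM1A cells, the knockdown without IL4, the knockdown with IL4 and the difference of IL4 effects, against 3466, 3497, 4927, 5255 and 791. Of the 7 genes, quantile normalization left 1 called for the knockdown without IL4 (against 2), and a trended prior variance gave 5 for the knockdown with IL4 (against 3). Leaving out each library in turn gave 2 to 4 called for IL4 in shKDM1A cells, 1 to 2 for the knockdown without IL4 and 3 to 4 with IL4. The cause was not tested. For P2rx4 and IL4 in shKDM1A cells, the adjusted p was also over the threshold with no filter (0.052), with only the groups compared (0.056) and after quantile normalization (0.091). For P2rx7 and the knockdown with IL4 it was under the threshold after median centring (0.038), quantile normalization (0.049) and a stricter filter (0.047), with a trended prior variance (0.044) and, before rounding, without replicate 3 of the shGFP IL4 libraries (0.05). Entpd1 and Upp1 have no value under the stricter filter.

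Libraries of the same number shared only that number: of 24 pairs across groups, 3 had correlated deviations over 0.1 (range -0.34 to 0.27), and 7 of 16 libraries correlated best with their own number. With the replicate block the counts of all genes called were 3430, 3459, 4882, 5212 and 732, and P2rx7 was called for the knockdown with IL4 (0.11, adjusted p = 0.019 from limma). No other call among the 7 genes changed with the block.

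Moderation of low values limits what can be seen in Entpd1 and Upp1, and 4 libraries per group limit differences near 0.1.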
